A study of Mus musculus with 10 samples.

Results

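Profilin 1, the 2 cytoplasmic actins and 7 genes of actin turnover were followed across sorted graft cells of the mouse midbrain. The genes were Pfn1, Actb, Actg1, Tmsb4x, Cfl1, Coro1a, Arpc2, Arpc3, Capg and Lcp1, and their probes were the non-control features whose name in the scanner files was one of these symbols. These are 10 of the 34832 names on the array, with 21 of its 55681 probes and 20 of the 50033 probes tested. Pfn1 was selected on its measured difference between FoxA2-Cre hybrids and FoxA2-Cre unfused cells, and the partners were chosen by their link to it, so values of that contrast are a description, and nothing is read from which members were called in it.

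All recipients were mice treated with the neurotoxin MPTP that received lineage-negative haematopoietic stem and progenitor cells (HSPCs) of bone marrow over the substantia nigra on day 3 after the last injection. Cells were sorted 1 week after the graft, with material of 2 mice in each replicate, and 500 ng of amplified cDNA was hybridised to single-colour Agilent arrays. Hybrids carried both red and yellow fluorescence (RFP+YFP+), and red-only (RFP+) cells are called unfused. Each group below had 2 arrays.

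FoxA2-Cre hybrids and FoxA2-Cre unfused cells came from recipients with Cre recombinase under Foxa2 control, grafted with HSPCs of the R26Y reporter line. R26Y hybrids came from reporter recipients grafted with HSPCs that carried Cre and RFP. GFAP-Cre hybrids came from recipients with Cre under Gfap control, again grafted with R26Y HSPCs. The pooled unfused cells joined red-only cells of R26Y and GFAP-Cre recipients, so both of those hybrid groups share this comparison group. With a Cre recipient, YFP can mark only fusion with a cell that expressed Cre, and red-only cells may include other fusions. Strain, sex and age were not given in the sources used here.

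Actin monomers (G-actin) assemble into filaments (F-actin) that drive cell shape, migration and phagocytosis. Profilin charges monomers with ATP and hands them to growing filament ends, thymosin beta 4 holds monomers in reserve, and the Arp2/3 complex starts filament branches. Cofilin severs old filaments, coronin 1A of blood cells works with cofilin and the Arp2/3 complex, and the caps and bundlers CapG and L-plastin set filament length and order. Haematopoietic cells express coronin 1A and L-plastin at high levels.

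The 2 Pfn1 probes read different stretches of the gene, and the sequence of the one that was measurable on a single slide is shown. In the mm9 coordinates of the files both lie on the minus strand of chromosome 11. The 60 bases of the first, A_51_P220993, span 625 positions, so it crosses a splice junction and skips 565 bases. The second, A_55_P2003502, lies at chr11:70466156-70466215, inside the span of the first and, if the first crosses a single junction, within the skipped stretch. The files tie it to another transcript model, ENSMUST00000108549, and the first 30 of its bases are printed.
Pfn1 A_55_P2003502: ataacagtatttactctgctggttatggga

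The next 3 sequences are Actg1 probes that overlap on the minus strand of chromosome 11, at chr11:120208409-120208468, chr11:120208371-120208430 and chr11:120208361-120208420. Capitals mark bases that differ between overlapping probes at the same coordinate. Over the 50 bases that A_52_P72237 and A_55_P1985984 share by position, 4 differ: G19A, A33G, T35G and T50C, with positions counted from 1 at the 5′ end of A_52_P72237, its own base first and that of A_55_P1985984 last. The probes therefore do not target 1 identical sequence, and transcripts of near-identical actin copies may bind more than 1 of them.
Actg1 A_55_P2008907: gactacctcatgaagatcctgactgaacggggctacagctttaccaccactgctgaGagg
Actg1 A_52_P72237: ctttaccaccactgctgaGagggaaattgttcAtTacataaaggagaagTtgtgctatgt
Actg1 A_55_P1985984: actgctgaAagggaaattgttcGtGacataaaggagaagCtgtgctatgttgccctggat

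Some member probes share a run of bases with a probe of another gene, so their signal is less certain, and the run of the Actg1 probe with the largest FoxA2-Cre difference is shown. The Actg1 probe A_55_P1970597 (chr11:120206967-120206984, minus strand) shares 20 bases with a feature named NAP111417-1. Its given coordinates cover only 18 positions, fewer than that run, so they do not place the whole probe. The Cfl1 probe A_55_P2000548 shares 22 bases with a probe of Odz1. In addition, the Cfl1 probe A_55_P1974788 shares 20 bases with an unnamed feature.
Actg1 A_55_P1970597: atcgacacctgtaaatgtat

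The arrays differed in depth. Spots well above background made up 19.8% to 49.2% on the 4 FoxA2-Cre arrays and 64.3% to 86.7% on the 6 others, with no saturated spot. All FoxA2-Cre arrays were on 1 slide and all others on a second, so slide and recipient set cannot be told apart, and every comparison below was made within a slide. The FoxA2-Cre hybrid arrays filled row 1 of their slide and the FoxA2-Cre unfused arrays row 2, so row and group cannot be told apart there. The scanner file of FoxA2-Cre unfused replicate 2 carries the sample number that the label gives to R26Y hybrid replicate 2. Values without it are given for several members below. Ptprc, the pan-leukocyte marker, was well above background on all 10 arrays, and the progenitor markers Kit and Cd34 on 7 each. Other markers of these lists were not: 4 of 8 general leukocyte genes and 4 of 6 progenitor genes were well above background on no FoxA2-Cre hybrid array. In FoxA2-Cre unfused cells these counts were 2 and 1. Levels below are log2 of the signal over the 75th percentile of the array's spots that were well above background on all arrays, so 0 means a signal at that percentile. The difference of 2 groups is in log2, with the standard error (SE) of the limma fit.

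The Pfn1 junction probe was near background in FoxA2-Cre hybrids and bright in FoxA2-Cre unfused cells. A_51_P220993 read -5.54 and -4.99 on the FoxA2-Cre hybrid arrays, neither well above background, against 2.77 and 3.13 on the FoxA2-Cre unfused arrays. In processed scanner intensity these were 8.59 and 5.55 in FoxA2-Cre hybrids and 5160 and 3380 in FoxA2-Cre unfused cells. The groups did not overlap and the difference was -8.21 ± 0.65 (SE). Because both hybrid arrays were below the detection limit, the fold is a bound. With the scaling used here, Pfn1 was at least 146.8-fold lower in FoxA2-Cre hybrids. The difference was smaller in size with the authors' table of log2 values (-5.77) and with normexp background correction (-4.83), so this bound holds for 1 scaling. The bound depends on the detection limit of each hybrid array, and was 85.86-fold without FoxA2-Cre hybrid replicate 1 and 251.1-fold without replicate 2. The difference was -8.04 without FoxA2-Cre unfused replicate 2. In these bulk samples, fewer cells that make a transcript and less transcript per cell cannot be told apart.

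In the R26Y and GFAP-Cre samples, on their own slide, the same Pfn1 probe hardly separated the groups. It read -1.30 and -2.35 in R26Y hybrids and -0.90 and -1.39 in GFAP-Cre hybrids, against -0.69 and -1.82 in the pooled unfused cells. The hybrid arrays of both kinds overlapped the unfused arrays. The difference was -0.57 ± 0.65 (SE) for R26Y hybrids (limma, adjusted p 0.999) and 0.11 ± 0.65 (SE) for GFAP-Cre hybrids (adjusted p 1). These p-values measure the spread between the deposited samples. The FoxA2-Cre difference minus that of the R26Y and GFAP-Cre hybrids was -7.99 ± 0.86 (SE), which uses the contrast that chose Pfn1.

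The second Pfn1 probe could not be measured on the FoxA2-Cre slide. A_55_P2003502 read -5.14 and -5.46 in FoxA2-Cre hybrids, against -7.92 and -6.28 in FoxA2-Cre unfused cells, and was well above background on none of these 4 arrays, so it has no measured order there. On the other slide it was well above background on all 6 arrays, at -4.99 and -3.47 in R26Y hybrids, -4.87 and -4.79 in GFAP-Cre hybrids, and -6.64 and -4.87 in pooled unfused cells. Its difference was 1.53 ± 0.86 (SE) for R26Y hybrids (adjusted p 0.999) and 0.93 ± 0.86 (SE) for GFAP-Cre hybrids (adjusted p 1). The GFAP-Cre hybrid arrays lay above the unfused arrays and the R26Y arrays overlapped them. The low FoxA2-Cre hybrid signal of Pfn1 therefore rests on the junction probe, the 1 of 2 that was measurable there.

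**Figure D1:**
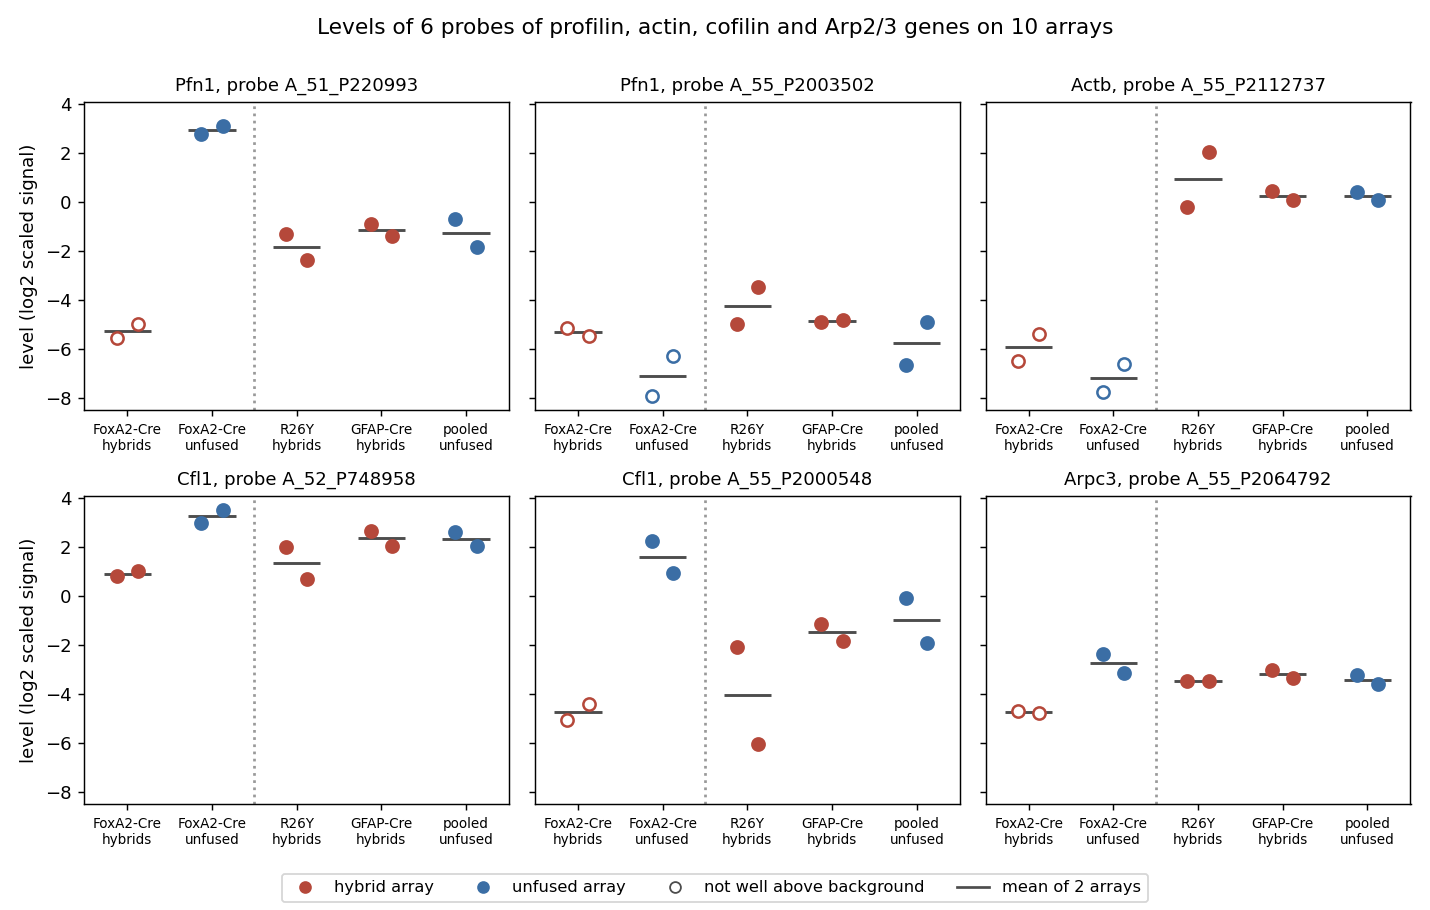
Level on each array (y axis, log2 scaled signal) of 6 probes by group (x axis), with points for arrays, open where the probe was not well above background, and bars for the mean of 2 arrays. The Pfn1 junction probe reads -5.54 and -4.99 in FoxA2-Cre hybrids against 2.77 and 3.13 in FoxA2-Cre unfused cells, while the second Pfn1 probe and Actb are not well above background on any FoxA2-Cre array.

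Among the partners, the 2 actin genes gave no common answer, since Actb was not measurable on the FoxA2-Cre slide and the Actg1 probes disagreed. Actb, the beta actin gene (A_55_P2112737, chr5:143665422-143665481), read -6.49 and -5.36 in FoxA2-Cre hybrids and -7.76 and -6.59 in FoxA2-Cre unfused cells, not well above background on any of the 4 arrays. It was well above background on all 6 arrays of the other slide, at -0.18 and 2.05 in R26Y hybrids, 0.47 and 0.08 in GFAP-Cre hybrids, and 0.44 and 0.10 in pooled unfused cells. Those groups overlapped, with differences of 0.66 ± 0.85 (SE) for R26Y hybrids (limma, adjusted p 0.999) and 0.00 ± 0.85 (SE) for GFAP-Cre hybrids (adjusted p 1). Actb thus has no measured FoxA2-Cre difference, since the probe that read well on the other slide was near background on all 4 FoxA2-Cre arrays, hybrid and unfused.

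The 5 probes of Actg1, the gamma actin gene, disagreed with each other. A_55_P1970597 read -6.73 and -5.29 in FoxA2-Cre hybrids against 2.43 and -1.49 in FoxA2-Cre unfused cells, a bound of at least 26.25-fold lower. The 2 unfused arrays differ widely, and the bound was 6.763-fold without FoxA2-Cre unfused replicate 1 and 101.9-fold without replicate 2. In the second case the difference, -8.43, also passed the limma threshold. Without FoxA2-Cre hybrid replicate 1 the bound was 15.35-fold, and without replicate 2 it was 44.9-fold. This probe is one of those that share bases with another feature. A_55_P2114993, which the files place at chr8:47316122-47316181 while the other 4 lie on chromosome 11, read 2.46 and 5.28 in FoxA2-Cre hybrids and 3.28 and 3.62 in FoxA2-Cre unfused cells, and overlapped. The overlapping trio stayed near background on this slide: A_55_P1985984 was well above it only on FoxA2-Cre hybrid array 1, at -1.84, with -5.70 on the other hybrid array and -5.93 and -6.28 on the unfused arrays. A_52_P72237 and A_55_P2008907 overlapped, the first well above background on 1 array of each FoxA2-Cre group and the second on 1 unfused array. In the R26Y and GFAP-Cre samples the 5 probes differed by -0.59 to 1.42 for R26Y hybrids and by -0.21 to 0.83 for GFAP-Cre hybrids, and none passed.

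Tmsb4x, which encodes the monomer-holding thymosin beta 4, split its replicates. A_55_P2061737 (chrX:163645095-163645154) read 6.09 and -5.37 in FoxA2-Cre hybrids, the second not well above background, against 2.21 and 1.27 in FoxA2-Cre unfused cells. The 2 hybrid arrays lay on either side of the unfused arrays, and the difference was -1.38 ± 3.08 (SE). Without FoxA2-Cre hybrid replicate 1 Tmsb4x was at least 37.13-fold lower, and without replicate 2 the difference was 4.35. Elsewhere the probe read -4.73 and -7.89 in R26Y hybrids and -2.20 and -3.74 in GFAP-Cre hybrids, against -1.97 and -3.50 in pooled unfused cells. R26Y hybrids lay below the unfused arrays (-3.57 ± 3.08 SE, adjusted p 0.999) and GFAP-Cre hybrids overlapped them (-0.23 ± 3.08 SE, adjusted p 1). The second Tmsb4x probe, A_55_P2061739, was well above background on 0 of 10 arrays and was the member feature not tested.

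Cfl1, which encodes the filament-severing cofilin, had a value below 0 at all 3 of its probes in the FoxA2-Cre comparison. A_52_P748958 (chr19:5493882-5493941) was well above background on all 10 arrays and read 0.81 and 1.03 in FoxA2-Cre hybrids, against 3.00 and 3.53 in FoxA2-Cre unfused cells. The groups did not overlap, with a difference of -2.35 ± 0.64 (SE). A_55_P2000548 read -5.07 and -4.38 in FoxA2-Cre hybrids, neither well above background, against 2.27 and 0.93 in FoxA2-Cre unfused cells, at least 57.56-fold lower, with bounds from 33.66-fold to 98.44-fold when any 1 of these 4 arrays was left out. A_55_P1974788 overlapped, with -0.87 ± 0.72 (SE). The sizes at the 3 probes differ widely. The probe with the largest difference shares bases with a probe of Odz1, and the probe with the smallest, A_55_P1974788, shares bases with an unnamed feature.

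Cfl1 also lay below the unfused arrays in R26Y hybrids at 2 of its 3 probes, as did 18.2% of all probes, so nothing is read from this count. At A_52_P748958 the margin was narrow, 2.02 against 2.04. A_52_P748958 read 2.02 and 0.70 in R26Y hybrids and 2.68 and 2.05 in GFAP-Cre hybrids, against 2.60 and 2.04 in pooled unfused cells, and A_55_P2000548 read -2.07 and -6.03 in R26Y hybrids and -1.11 and -1.83 in GFAP-Cre hybrids, against -0.07 and -1.91. The R26Y differences were -0.96 ± 0.64 (SE) and -3.06 ± 1.27 (SE), with limma adjusted p 0.999 for each, and the GFAP-Cre differences were 0.04 ± 0.64 (SE) and -0.49 ± 1.27 (SE), with adjusted p 1 for each. At A_55_P2000548 the outcome depended on R26Y hybrid replicate 1. Without that array the difference was -5.04 (limma, adjusted p 0.0274), in a fit where 3898 probes of all genes passed. That fit holds 1 R26Y hybrid array, the one with the fewest spots above background on its slide, and assumes that it varies like the other groups.

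Coro1a, the coronin of blood cells, rested on a single bright array. A_55_P2002963 (chr7:133843289-133843348) read -6.41 and -5.66 in FoxA2-Cre hybrids, against 0.27 and -6.51 in FoxA2-Cre unfused cells, and only the bright unfused array was well above background. The bound over both unfused arrays was at least 2.178-fold lower in FoxA2-Cre hybrids, and 22.86-fold without FoxA2-Cre unfused replicate 2, where Coro1a also passed the limma threshold. Without replicate 1 neither group was above background and there is no measured difference. Leaving out hybrid replicate 1 or 2 gave 1.274-fold or 3.725-fold. Away from that slide it read -5.70 and -5.79 in R26Y hybrids and -5.62 and -6.67 in GFAP-Cre hybrids, against -4.59 and -5.32 in pooled unfused cells. Both hybrid groups lay below the unfused arrays, by -0.79 ± 1.81 (SE, adjusted p 0.999) and -1.19 ± 1.81 (SE, adjusted p 1).

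The Arp2/3 subunit genes differed from probe to probe. Arpc3 was closest to Pfn1 at A_55_P2064792 (chr5:122855952-122856011), which read -4.68 and -4.78 in FoxA2-Cre hybrids, neither well above background, against -2.34 and -3.12 in FoxA2-Cre unfused cells. The bound was at least 2.539-fold lower, and ran from 1.672-fold without FoxA2-Cre hybrid replicate 1 to 3.855-fold without replicate 2. Without FoxA2-Cre unfused replicate 2 it was 3.328-fold. A second Arpc3 probe, A_55_P2023953, read 2.16 and -3.37 in FoxA2-Cre hybrids and -5.67 and -6.18 in FoxA2-Cre unfused cells. The difference at this probe was 5.32 ± 1.76 (SE), opposite in sign to the first. It was well above background on the first array of each group and not on the other. The last Arpc3 probe, A_55_P2023952, was not well above background on any FoxA2-Cre array.

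Arpc2 (A_55_P1980831, chr1:74314503-74314562) resembled Coro1a in the FoxA2-Cre samples, with -5.37 and -5.61 in hybrids against 0.50 and -6.50 in unfused cells. Of these 4 arrays only FoxA2-Cre unfused replicate 1 was well above background. The bound was at least 2.37-fold lower, 26.78-fold without FoxA2-Cre unfused replicate 2, and 1.386-fold or 4.052-fold without hybrid replicate 1 or 2. Without unfused replicate 1 there is no measured difference. In the R26Y and GFAP-Cre set, Arpc2 read -2.02 and -8.75 in R26Y hybrids and -6.62 and -4.36 in GFAP-Cre hybrids, against -2.95 and -2.45 in pooled unfused cells. The GFAP-Cre hybrids lay below the unfused arrays (-2.79 ± 2.55 SE, adjusted p 1), and R26Y hybrids overlapped (-2.69 ± 2.55 SE, adjusted p 0.999). Arpc3 A_55_P2064792 ranged only from -3.60 to -3.02 over these 6 arrays, with differences of -0.05 ± 0.53 (SE, adjusted p 0.999) and 0.23 ± 0.53 (SE, adjusted p 1).

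Capg, which encodes a barbed-end cap of macrophages, again had 1 bright unfused array. A_55_P1998631 (chr6:72512913-72512972) read -4.65 and -5.50 in FoxA2-Cre hybrids, against -5.49 and -0.76 in FoxA2-Cre unfused cells, where only the second unfused array was well above background. The bound was at least 1.917-fold lower, 9.89-fold without FoxA2-Cre unfused replicate 1, and 1.274-fold or 2.886-fold without hybrid replicate 1 or 2. Without unfused replicate 2 there is no measured difference. It read -2.29 and -5.69 in R26Y hybrids and -1.57 and -3.66 in GFAP-Cre hybrids, against -2.53 and -2.46 in pooled unfused cells. All groups overlapped, with differences of -1.50 ± 1.64 (SE, adjusted p 0.999) and -0.13 ± 1.64 (SE, adjusted p 1).

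Lcp1, the L-plastin gene, was the member whose FoxA2-Cre hybrids lay above the unfused arrays at a probe well above background on all 4 arrays. Arpc3 A_55_P2023953 and Actg1 A_55_P1985984 also read higher on both hybrid arrays, but only 1 hybrid array of each was well above background. A_55_P2066613 (chr14:75629312-75629371), well above background on all 10 arrays, read -2.68 and -0.98 in FoxA2-Cre hybrids, against -3.77 and -2.88 in FoxA2-Cre unfused cells (1.49 ± 0.68 SE, and 1.93 without FoxA2-Cre unfused replicate 2). On the other slide it read -2.97 and -3.02 in R26Y hybrids and -2.97 and -3.01 in GFAP-Cre hybrids, against -2.47 and -2.44 in pooled unfused cells. These 4 hybrid arrays lay below both unfused arrays, by -0.54 ± 0.68 (SE) in each comparison, with adjusted p 0.999 for R26Y hybrids and 1 for GFAP-Cre hybrids. The other Lcp1 probe, A_52_P56751, overlapped in the FoxA2-Cre samples and was well above background on 1 array of each group.

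**Figure D2:**
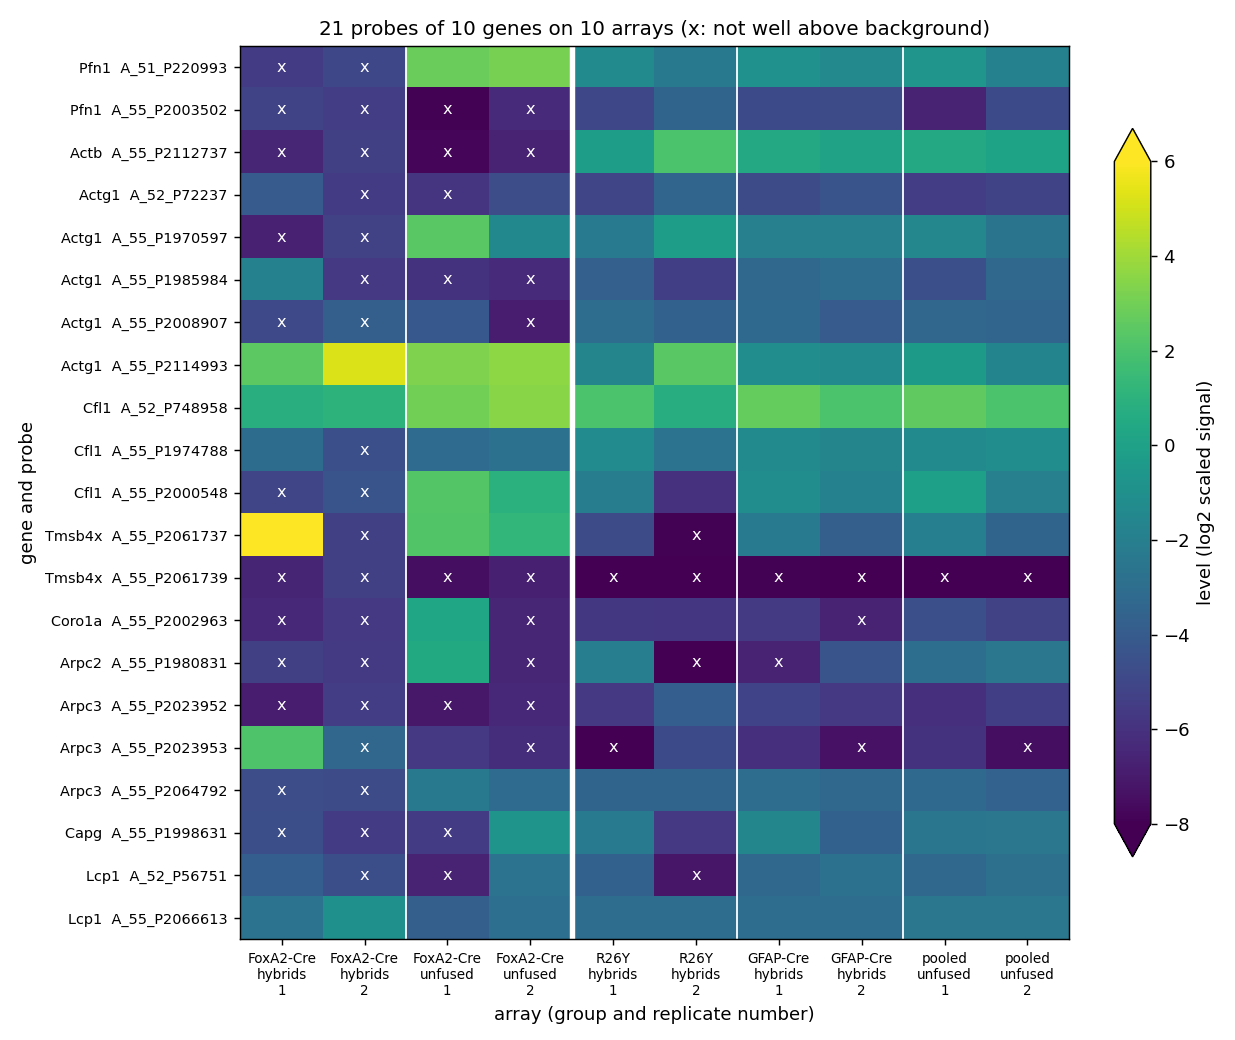
Level (colour, log2 scaled signal) of 21 probes (rows) on 10 arrays (columns, group and replicate number), with a cross where the probe was not well above background. On the FoxA2-Cre slide most members are crossed in the hybrid columns, and Pfn1 A_51_P220993, Cfl1 A_55_P2000548, Actg1 A_55_P1970597 and Arpc3 A_55_P2064792 are crossed there and nowhere else.

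Over the 20 probes tested, the FoxA2-Cre difference lay below 0 at 10 and above 0 at 10, with a median of -0.24, against 0.43 over all 50033 probes. Of those above 0, Pfn1 A_55_P2003502, Actb and Arpc3 A_55_P2023952 were below background in both groups, so their signs have no measured order. With 1 probe a gene, the brightest, 7 genes were below 0 and 3 above, Actb among the latter, with a median of -1.97. Over all genes at their brightest probe the median was 0.36. The member median includes Pfn1, chosen on this contrast, and genes whose sign changed when an array was left out, so nothing is read from it. Of the 20, 1 passed the limma threshold of adjusted p 0.05 as lower, the Pfn1 junction probe, beside a background of 0.308% of all probes called lower. That probe chose the set, so nothing is read from this count. Of the 2502 brightest probes in FoxA2-Cre unfused cells, the top 5%, 5.32% were called lower, and the Pfn1 probe is among those 2502. For the difference between recipient sets, 1 of 20 passed as lower, again Pfn1, where 0.0540% of all probes did. That difference contains the contrast that chose Pfn1, so nothing is read from it.

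In FoxA2-Cre samples, hybrids lay wholly below unfused arrays at 5 of 20 probes, by the rule that the brighter group is well above background on both arrays and that values below background elsewhere are raised to the array's detection floor. They were Pfn1 A_51_P220993, Actg1 A_55_P1970597, Cfl1 A_52_P748958, Cfl1 A_55_P2000548 and Arpc3 A_55_P2064792, where 4.43% of all probes did so. These 5 lay between percentiles 80.3 and 98.4 of brightness in FoxA2-Cre unfused cells, and the rule needs bright unfused arrays, so that share is not a like background. Pfn1 was also chosen on this contrast, so nothing is read from the count. Lcp1 A_55_P2066613 was the 1 probe wholly above, where 6.23% of all probes were. The remaining 14 overlapped (11) or were below background in both groups (3). On the other slide, R26Y hybrids lay wholly below at 6 probes and above at 1, beside backgrounds of 18.2% and 9.22%. GFAP-Cre hybrids lay wholly below at 3 and above at 3, beside backgrounds of 13.5% and 18.9%.

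No member passed on the other slide. Of 20 probes, 0 were called in R26Y hybrids (1 at an unadjusted p under 0.05), 0 in GFAP-Cre hybrids (0 at that level), 0 in R26Y and GFAP-Cre hybrids combined (0 at that level) and 0 in GFAP-Cre against R26Y hybrids (0 at that level). The background in each of these 4 limma comparisons was 0% of all 50033 probes, with 788, 982, 723 and 1544 probes at an unadjusted p under 0.05. The member median was -0.55 in R26Y hybrids, against -0.29 over all probes, and -0.0004 in GFAP-Cre hybrids, against 0.04 over all probes.

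**Figure D3:**
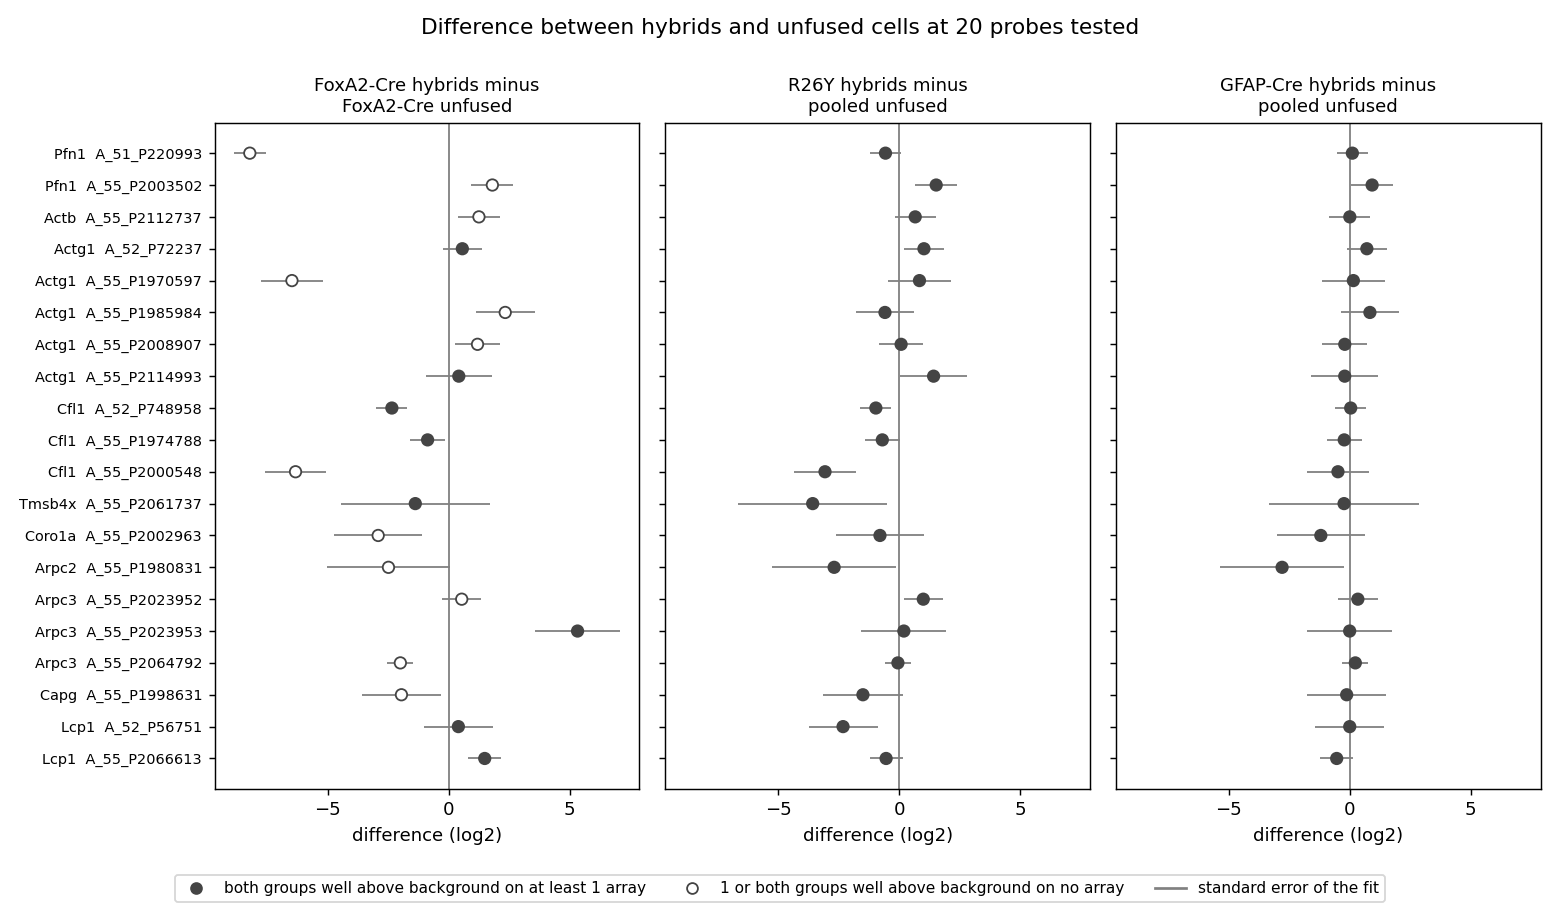
Fitted difference (x axis, log2, with SE) at the 20 probes tested (rows) in 3 comparisons, with open points where 1 or both groups were well above background on no array. In FoxA2-Cre samples the values run from -8.21 to 5.32, with Pfn1 A_51_P220993 lowest, and in the R26Y and GFAP-Cre hybrids that probe lies at -0.57 and 0.11.

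Other genes of the actin machinery were compared from lists of profilins and monomer binders, actins, Arp2/3 subunits, nucleators, severing and capping proteins, coronins, bundlers and linkers, and actin-linked transcription factors. Of 84 listed genes, 79 were tested, and in limma 0 passed in FoxA2-Cre hybrids, 0 in R26Y hybrids and 0 in GFAP-Cre hybrids. Over all 50033 probes 172 (0.344%) passed in either direction in FoxA2-Cre hybrids and 0 in the others, so the count of 0 does not set the listed genes apart. In FoxA2-Cre hybrids 34 lay below 0 and 45 above, with a median of 0.25, against 0.43 over all probes. Some listed genes, such as Arpc1a and Arpc1b, were well above background on no FoxA2-Cre array, and their signs have no measured order. The counts were 48 below and 31 above in R26Y hybrids, with a median of -0.16 against -0.29 over all probes, and 36 below and 43 above in GFAP-Cre hybrids, with a median of 0.08 against 0.04.

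By the smallest p in each comparison, the named genes in FoxA2-Cre hybrids were Arpc4 and Actr2, both of the Arp2/3 complex, and the crosslinkers Actn4 and Actn1. Arpc4 read -3.23 and -3.07 in FoxA2-Cre hybrids, against -0.51 and -0.33 in FoxA2-Cre unfused cells (-2.74 ± 0.49 SE), with 1 hybrid array well above background. Actr2 was at least 15.81-fold lower, at -6.64 and -5.54 in hybrids against 2.07 and -2.59 in unfused cells. Its bound was 3.141-fold without FoxA2-Cre unfused replicate 1 and 79.56-fold without replicate 2, and 9.244-fold or 27.03-fold without hybrid replicate 1 or 2. Actn1 was at least 3.616-fold lower, at -6.51 and -5.47 in hybrids against -0.86 and -3.92 in unfused cells, with bounds of 1.249-fold and 10.47-fold without unfused replicate 1 or 2, and 2.115-fold and 6.184-fold without hybrid replicate 1 or 2. Actn4 read -4.12 and -4.39 in hybrids against -7.55 and -6.62 in unfused cells, and 1 of these 4 arrays, a hybrid, was well above background. In the whole Arp2/3 list 4 of 8 genes lay below 0 and 4 above. Of those above, Arpc1a, Arpc1b and Arpc5l were well above background on no FoxA2-Cre array, so their signs have no measured order.

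In R26Y hybrids the smallest p values were at Tpm4 (-2.92 ± 1.22 SE), which encodes a tropomyosin, Flna (-1.79 ± 0.75 SE), which encodes a filamin crosslinker, the Arp2/3 subunit gene Arpc1b (-3.22 ± 1.44 SE) and Pfn2 (3.02 ± 1.54 SE), which encodes a second profilin, with limma adjusted p 0.999 for each. In GFAP-Cre hybrids they were at Cfl2, a second cofilin gene (at least 10.73-fold higher), Twf2 (at least 3.115-fold higher), Nckap1 (at least 2.763-fold lower) and Flna (-1.45 ± 0.75 SE), with adjusted p 1 for each. Twf2 encodes a monomer-binding twinfilin and Nckap1 a subunit of the WAVE complex.

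**Figure D4:**
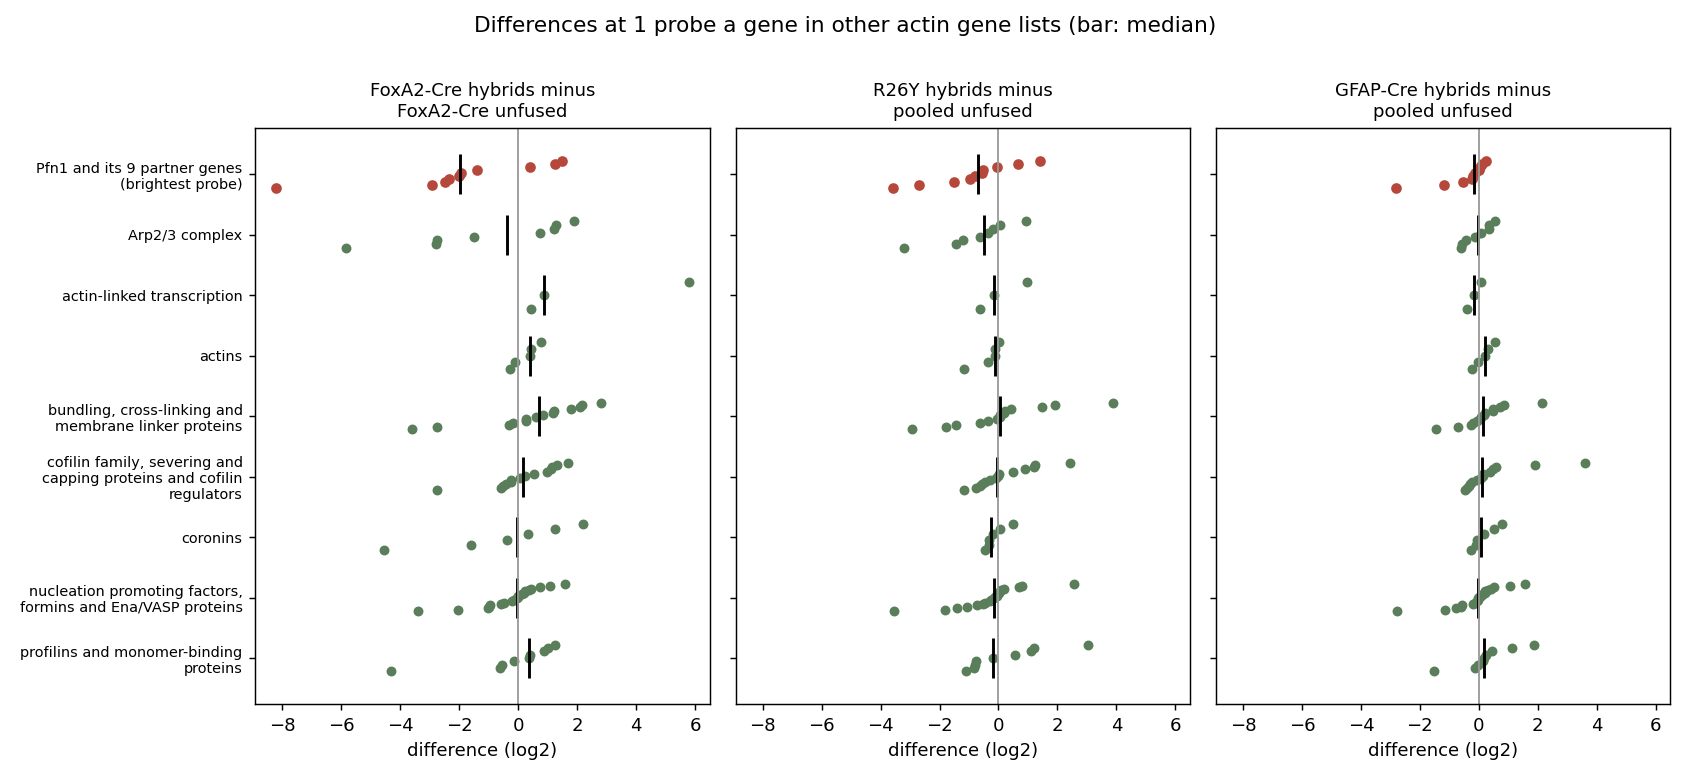
Difference (x axis, log2) at 1 probe a gene in 8 lists of other actin genes and in the 10 member genes (rows), in 3 comparisons, with a bar at each median. In FoxA2-Cre samples the member median is -1.97 and the 79 listed genes tested run from -5.82 to 5.80 with a median of 0.25. The members include Pfn1, chosen on this contrast, so these medians are not a like comparison.

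Neutrophil markers were mostly lower in all 3 hybrid groups. Of 10 neutrophil genes, 9 lay below 0 in FoxA2-Cre hybrids (median -3.30, against 0.43 over all probes). The counts were 10 in R26Y hybrids (median -1.67 against -0.29) and 8 in GFAP-Cre hybrids (median -0.89 against 0.04). Of the 74 marker genes tested over all lists, 38, 51 and 43 lay below 0 in these 3 groups. The neutrophil gene called lower in limma was 1 of the 10, Mpo, in FoxA2-Cre hybrids, where 0.308% of all probes were called lower. In the other 2 groups 0 were called, as were 0% of all probes. The list's mean level was -5.11 and -4.32 on the FoxA2-Cre hybrid arrays against -0.79 and -1.57 on the FoxA2-Cre unfused arrays. It was -3.74 and -5.15 in R26Y hybrids and -3.13 and -3.86 in GFAP-Cre hybrids, against -1.93 and -2.79 in pooled unfused cells. In FoxA2-Cre hybrids 6 of these 10 genes were well above background on no array, and in FoxA2-Cre unfused cells 1 was.

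Of the 74 marker genes tested over 10 lists, Mpo was the only one called in these 3 comparisons. Microglia genes lay above 0 at 7 of 10 in FoxA2-Cre hybrids, with a median of 0.80 against 0.43 over all probes. Their list level was -1.12 and -0.73 in FoxA2-Cre hybrids against -2.41 and -1.73 in FoxA2-Cre unfused cells. Of 15 other abundant transcripts of most cells, 10 lay below 0 (median -0.86), and the list level was -0.50 and -2.95 in FoxA2-Cre hybrids against 0.75 and -1.94 in FoxA2-Cre unfused cells. The FoxA2-Cre medians of the other lists were -0.88 for leukocytes in general, -0.18 for stem and progenitor cells, 0.96 for erythroid cells and 0.74 for astrocytes. They were 0.02 for neurons, 0.75 for oligodendrocytes and 0.39 for endothelium. The part of any of these in the Pfn1 difference was not tested.

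The probes whose pattern was most like that of the Pfn1 junction probe were at Plekhj1, Fam204a, Arpc4, Gm4786 and Man2b1. Likeness was the Pearson correlation over 10 arrays, with each slide's mean taken out, and was 0.99 at each of the 5. Plekhj1 read -2.75 and -2.99 in FoxA2-Cre hybrids, against 3.43 and 3.89 in FoxA2-Cre unfused cells. Man2b1 read -5.60 and -5.44 in FoxA2-Cre hybrids, against -2.06 and -2.05 in FoxA2-Cre unfused cells. Of 49891 probes, 1025 (2.05%) had a value above 0.8. Among member probes, Arpc3 A_55_P2064792 had 0.94, Cfl1 A_52_P748958 0.90, Cfl1 A_55_P2000548 0.88 and Actg1 A_55_P1970597 0.84, and the second Pfn1 probe had -0.66. That second probe was not well above background on any FoxA2-Cre array, so nothing is read from its value. The Pfn1 junction probe varied mostly between the FoxA2-Cre groups, the contrast that chose it, so high values largely repeat that contrast. The arrays share slides, and these values are a description.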

How the data were processed

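Single-colour Agilent arrays of 10 samples were used, with 2 arrays in each of 5 groups taken from the labels. Per the file headers, the deposited processed signal, an intensity, came from Agilent Feature Extraction 10.7.3.1, which subtracts background and detrends it within the array, and coordinates are mm9. The authors also deposited a table of log2 values, whose ranks matched the net signal of each array (Spearman's rho 1), whose column medians ran from 6.27 to 7.46, and whose normalization was not given in the sources used here; it served as an alternative.

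Here log2 processed signal was scaled to each array's 75th percentile over the 9510 spots that every array detected well above background, non-uniform spots were dropped, and replicate spots of 1 probe were averaged. Probes well above background on at least 2 arrays were tested with limma 3.58.1 in R 4.3.3, two-sided, on 5 group means (5 residual degrees of freedom), with Benjamini-Hochberg adjustment over 50033 probes at 0.05. "At least" folds set the dim group at each array's lowest signal well above background, or the probe's own if higher. The fit was tested on simulated data. The number of arrays limits the precision. Named actin genes are the 4 of smallest p in each comparison, and like probes are the 5 of highest correlation. Named symbols are those of the array annotation, updated by accession where possible. Members, lists and tests were chosen with earlier results of these data known. Replicate numbers did not pair samples: same-numbered deviations correlated between -0.081 and 0.058. Alternatives covered background correction, scaling, the deposited table, filters, probe choice, slides, rows, columns, a replicate block, array weights, shared sequence and each array left out. Some probe sequences and 1 gene list are not reported here.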

Additional observations from a re-analysis of the deposited data

Results flagged for a closer look

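The FoxA2-Cre difference of the Pfn1 junction probe minus that of the R26Y and GFAP-Cre hybrids was -7.99 ± 0.86 (SE, log2). It was singled out because the same contrast of hybrids against unfused cells differed between recipient sets in limma's interaction term. The 2 FoxA2-Cre hybrid arrays lay below both FoxA2-Cre unfused arrays, and the 4 hybrid arrays of the other slide overlapped the pooled unfused arrays. The contrast that chose Pfn1 is part of this value, so it is a description. Slide and recipient set cannot be told apart in it.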

How the results depend on the processing

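The Pfn1 junction probe kept its direction under the 24 alternatives that read it alone, from -8.49 to -4.83 (log2), the smallest with normexp background. Averaged with the second probe, which was below background in both groups, it gave -3.21. The count of members called in FoxA2-Cre hybrids, 1 in the fit reported, was 0 when a gene's probes were averaged, with each slide fitted alone, with slide row as a block and with slide column as a block, and ran from 1 to 3 when single arrays were left out. The extra calls were Cfl1 A_55_P2000548 without either R26Y hybrid array, and Actg1 A_55_P1970597 and Coro1a without FoxA2-Cre unfused replicate 2, in fits that leave the group at 1 array assumed to vary like the others. The count for the difference between recipient sets, also 1, was 0 with normexp background, quantile normalization, averaged probes, the row block, the column block, the replicate block and array weights, and ran from 0 to 1 with single arrays left out. With the replicate block the FoxA2-Cre count was 1, and 100 probes of all genes were called, against 172 in the fit reported. With each slide fitted alone, the row block or the column block, 0 probes of all genes were called in that contrast. The member count of 0 in those fits therefore does not set the members apart. When a gene's probes were averaged, 123 genes were called. R26Y hybrids, and GFAP-Cre against R26Y hybrids, had 0 to 1 with single arrays left out, the 1 being Cfl1 A_55_P2000548 without R26Y hybrid replicate 1, where 3898 and 3658 probes were called. Over all genes the FoxA2-Cre calls were 73 without probes sharing 20 bases and 66 to 658 with single arrays left out. Of the 172 calls 18 were higher, against 44 of 188 with the authors' table, 143 of 323 without FoxA2-Cre hybrid replicate 1 and 303 of 489 without replicate 2. The difference between recipient sets called 31 probes over all genes, and 5 with quantile normalization, 67 with the authors' table, 13 without probes sharing 20 bases and 0 with the row, column or replicate block. The FoxA2-Cre median of all probes, 0.43, lay between 0.03 and 0.74 under other scalings. Actb, Arpc2, Arpc3, Capg, Coro1a, Tmsb4x and Actg1 changed sign in FoxA2-Cre samples under at least 1 alternative, and Pfn1, Cfl1 and Lcp1 under none. The scan block was not run, since each slide had 1 scan. Actb and the second Pfn1 probe were well above background on no FoxA2-Cre array, so they have no measured value there. The cause of these changes was not tested.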
